A study of Mus musculus with 21 samples.

Results

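The libraries described here are the 6 of HSCs (hematopoietic stem cells) from mice given 5-fluorouracil (5-FU) once, 3 labelled day 21 and 3 labelled day 6, out of 21 libraries in all. They were chosen by the names of their columns in the count table. Recovery is used as the name of the interval between these days, and each fold change is the day 21 level over the day 6 level unless another pair is named. Where a gene is said to rise or fall by a number, the number is the size of its log2 fold change. The mice were wild-type C57BL/6 animals of both sexes, 10 weeks old, and 5-FU was injected into the peritoneum at 150 mg/kg on day 1. Day 6 is therefore 5 days after the drug and day 21 is 20 days after it. Each library was made from 3000 to 3500 cells sorted from bone marrow as CD150+CD48-Flt3- cells of the lineage-negative, Sca-1+, c-Kit+ fraction, and each replicate of a group came from a separate experiment. At day 6 the sort was wider: cells were taken from high down to dim c-Kit, and the antibody to Mac-1 was left out of the lineage mixture. At day 21 the ordinary gate was used. The 3 day 6 columns also carry a suffix in their names that the day 21 columns lack and whose meaning is not stated. Day, gate and column name kind changed together, so their parts in any difference between these 6 libraries cannot be told apart.

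The libraries used for reference were of 4 further groups: HSCs from mice given phosphate-buffered saline (PBS) once and sorted at day 6 with the ordinary gate, HSCs from mice given PBS 3 times, and HSCs at day 6 and at day 21 after the third of 3 administrations of 5-FU given 21 days apart. Each of these groups had 3 libraries. The study asked how HSCs make ATP and divide under the stress of 5-FU, a drug that kills cycling cells.

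HSCs are the rare bone marrow cells that renew themselves and give rise to every blood lineage, and at rest most of them are out of the cell cycle. 5-FU is converted in cells to fluorinated nucleotides that block thymidylate synthase and enter RNA and DNA. Dividing progenitors die, surviving HSCs are called into cycle to refill the marrow, and they later return to rest. DNA replication genes are driven largely by E2F factors, and genes of mitosis by the DREAM and MuvB complexes, which act at CHR elements and nearby CCAAT boxes.

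The 6 libraries held 23395821 to 36669644 counts, within the range of 22184885 to 38649033 over all 21, and no pair of them was a copy. Day separated the libraries on the first principal component of their log2 CPM, which held 40.9% of the variance. The second component held 18.4% and set day 21 replicate 2 apart from the other two day 21 libraries. The 10 most abundant genes took 5.77 to 6.17% of counts at day 6 and 4.81 to 5.08% at day 21. HSC identity was present on both days: the summed level of 34 HSC genes was 6671 to 6748 CPM at day 6 and 9222 to 9916 CPM at day 21, with none of them at 0 in all libraries of a day. Levels are given in CPM, the count of a gene over the library total (scaled by TMM factors over all 21 libraries) times 1000000. In bulk libraries of sorted cells, fewer cells of a type and less RNA per cell cannot be told apart.

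Of 12589 genes tested, 3272 were called with adjusted p under 0.05 in edgeR's quasi-likelihood test, which is 26.0% of those tested. Of these, 1546 (12.3%) were higher and 1726 (13.7%) lower at day 21 than at day 6. At least a 2-fold change was seen for 264 of the genes that rose and 334 of those that fell, and the median log2 fold change over all tested genes was -0.01. The smallest adjusted p belonged to Muc13, a transmembrane mucin, chosen for mention after its values were seen. Its levels were 315, 309 and 344 CPM in the day 6 libraries and 1155, 1152 and 1212 CPM in the day 21 libraries, a log2 fold change of 1.87 (standard error 0.068, edgeR adjusted p = 0.000153). The number of calls fell without any one library, from 2978 without day 21 replicate 1 to 1736 without day 6 replicate 2, with 1926 and 1822 left without day 6 replicates 1 and 3, and no called gene followed below changed direction in any of these fits. With the difference between the PBS groups subtracted, 2155 genes were called. That difference stands for the column name kind together with the number of PBS injections and the time over which they were given.

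**Figure D1:**
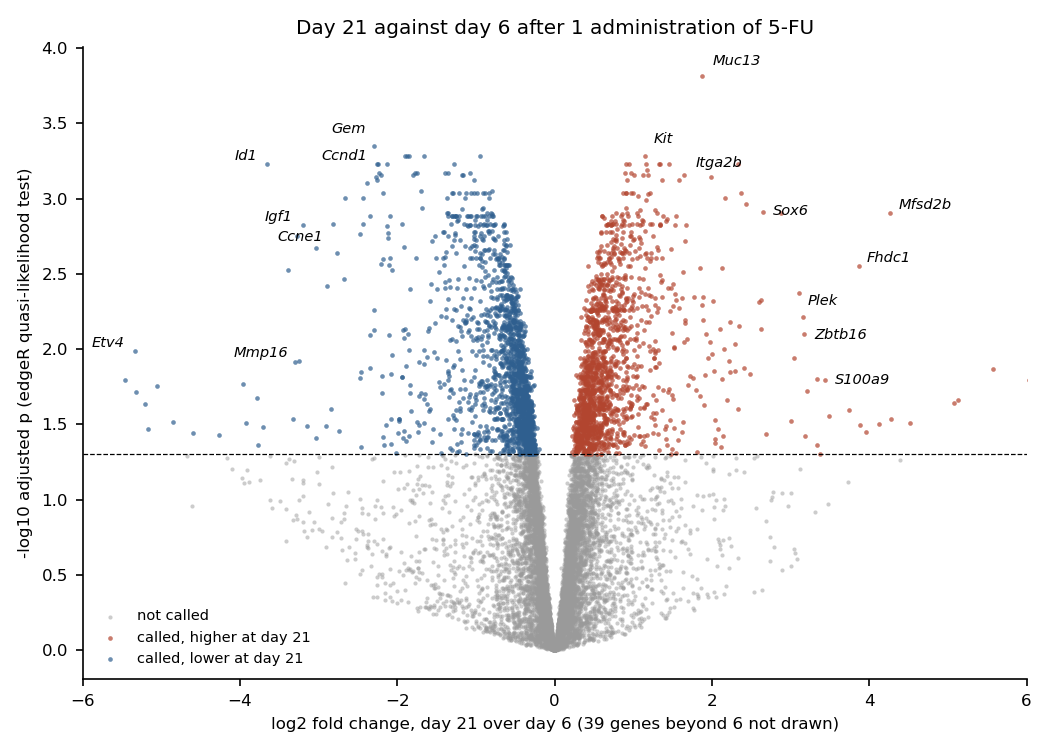
Each point is 1 of the 12589 tested genes, with the log2 fold change of day 21 over day 6 on the horizontal axis and minus log10 of the edgeR adjusted p on the vertical axis, and colored points are the 1546 genes higher and 1726 lower at adjusted p under 0.05. The 39 genes with a log2 fold change beyond 6 in either direction are not drawn, and Muc13 has the smallest adjusted p.

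DNA replication genes fell together. Of 50 tested members of a list of replication and S phase genes, 43 were lower at day 21 and 0 were higher, with a median log2 fold change of -0.62, against 13.7% lower and a median of -0.01 over all genes. The G2 and mitosis list had 39 of 54 members lower and 0 higher, with a median of -0.70. Ccne1, which encodes cyclin E1, the partner of CDK2 at the entry to S phase, stood at 13.1, 13.8 and 13.8 CPM at day 6 and at 1.48, 2.78 and 1.46 CPM at day 21. No day 21 library reached a day 6 library, and the log2 fold change was -2.81 (standard error 0.28, edgeR adjusted p = 0.00148). Ccne2, the gene of its relative cyclin E2, fell by 1.52 from levels of 104, 149 and 100.2 CPM, and 17.4% of its exonic bases lie in Ints8 on the other strand. Gins1, a subunit of the replicative helicase, fell by 1.41.

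The promoters of these genes are shown for one gene of each cell cycle list, because the sequence elements named above can be read in them. They are RefSeq sequences of the mouse build GRCm38.p6, from 250 bases before to 50 bases after the gene start, 5′ to 3′ on the strand of the gene, in lower case with the motif matches in capitals. Clspn encodes claspin, which carries the checkpoint signal from stalled forks, and Ect2 encodes the exchange factor that sets the plane of cytokinesis. Clspn was chosen for mention after its values were seen.
Clspn, chr4:126556730-126557029, plus strand, E2F match in capitals: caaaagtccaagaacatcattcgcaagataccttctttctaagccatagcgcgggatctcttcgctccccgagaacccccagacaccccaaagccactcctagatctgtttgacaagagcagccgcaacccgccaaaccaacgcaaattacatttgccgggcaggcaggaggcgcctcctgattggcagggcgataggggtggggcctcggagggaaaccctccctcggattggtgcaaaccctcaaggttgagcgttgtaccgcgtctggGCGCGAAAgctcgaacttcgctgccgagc
Ect2, chr3:27153829-27154128, minus strand, CCAAT and TTTGAA matches in capitals: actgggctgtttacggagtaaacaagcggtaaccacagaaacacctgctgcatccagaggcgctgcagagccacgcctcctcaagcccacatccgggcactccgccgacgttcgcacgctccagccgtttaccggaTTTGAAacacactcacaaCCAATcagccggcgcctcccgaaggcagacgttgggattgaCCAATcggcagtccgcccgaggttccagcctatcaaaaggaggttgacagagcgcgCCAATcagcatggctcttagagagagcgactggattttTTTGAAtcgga
Clspn was at 17.7, 19.8 and 20.2 CPM at day 6 and 6.99, 8.35 and 8.26 CPM at day 21 (log2 fold change -1.28, standard error 0.12, edgeR adjusted p = 0.00131). Ect2 was at 117, 128 and 145 CPM at day 6 and 49.3, 56.9 and 39.1 CPM at day 21 (log2 fold change -1.42, standard error 0.15, edgeR adjusted p = 0.00167). For both genes the libraries of the days did not overlap. An E2F motif, searched as TTTCCCGC, TTTGGCGC, TTTCGCGC or TTTGCCGC on both strands, was found in 20 of the 42 S phase promoters at hand (47.6%), against 4.79% of the promoters of tested genes and 2.6% of all 27025 promoters. CCAAT and the CHR letters TTTGAA occurred together in 30 of 45 promoters of the G2 and mitosis list (66.7%), against 6.31% of the promoters of tested genes. A match of these letters is a description of the sequence and not a bound site.

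Within the mitotic list, Cenpa, the histone variant that marks centromeres, was at 276, 287 and 255 CPM at day 6 and at 100.3, 132 and 109 CPM at day 21 (log2 fold change -1.25, edgeR adjusted p = 0.00131). Mki67, whose product Ki-67 coats mitotic chromosomes and is used as a mark of cycling cells, was at 87.7, 80.03 and 100 CPM at day 6 and 43.1, 49.2 and 52.1 CPM at day 21. It fell by 0.88 (edgeR adjusted p = 0.00301), without overlap, and with the PBS groups' difference subtracted the log2 fold change was -0.53 and the call was lost (adjusted p = 0.123). Bub1, a spindle checkpoint kinase, fell by 1.16 (edgeR adjusted p = 0.0213), and its call was lost without day 21 replicate 3 or any single day 6 replicate, at adjusted p of 0.0555 to 0.0627, and with the PBS groups' difference subtracted (adjusted p = 0.214). The count of S phase genes called lower stayed between 37 and 42 when any one library was left out, and that of the mitotic genes between 29 and 42. With the PBS groups' difference subtracted, 29 S phase and 24 mitotic genes were called lower.

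Among 15 cyclins, CDKs and inhibitors of the first gap phase, 6 were lower and 2 higher. Ccnd1, the gene of cyclin D1, which links growth factor signals to the cell cycle, was at 102, 104 and 86.3 CPM at day 6 and 16.3, 21.9 and 22.7 CPM at day 21 (log2 fold change -2.25, standard error 0.15, edgeR adjusted p = 0.0005902). Cdkn1a, the p53 target that encodes the CDK inhibitor p21, went the same way, from 14.04, 13.96 and 14.4 CPM to 2.42, 1.53 and 2.67 CPM (log2 fold change -2.67, edgeR adjusted p = 0.000998). Cdk6, the kinase that pairs with D-type cyclins, rose from 55.8, 49.6 and 58.98 CPM to 119, 104 and 116 CPM (log2 fold change 1.05, edgeR adjusted p = 0.00125). For all 3 genes the libraries of the days were apart. About 23.4% of the exonic bases of Ccnd1 are shared with the gene LTO1 on the other strand, and the library kit does not keep strand. The histone gene H2bc4, chosen after its values were seen, was at 52.9, 68.4 and 65.4 CPM at day 6 and 12.96, 15.8 and 11.3 CPM at day 21 (log2 fold change -2.21, edgeR adjusted p = 0.000693). Histone genes of this kind have near-identical copies among which reads may be split, so the level of any single one is uncertain.

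**Figure D2:**
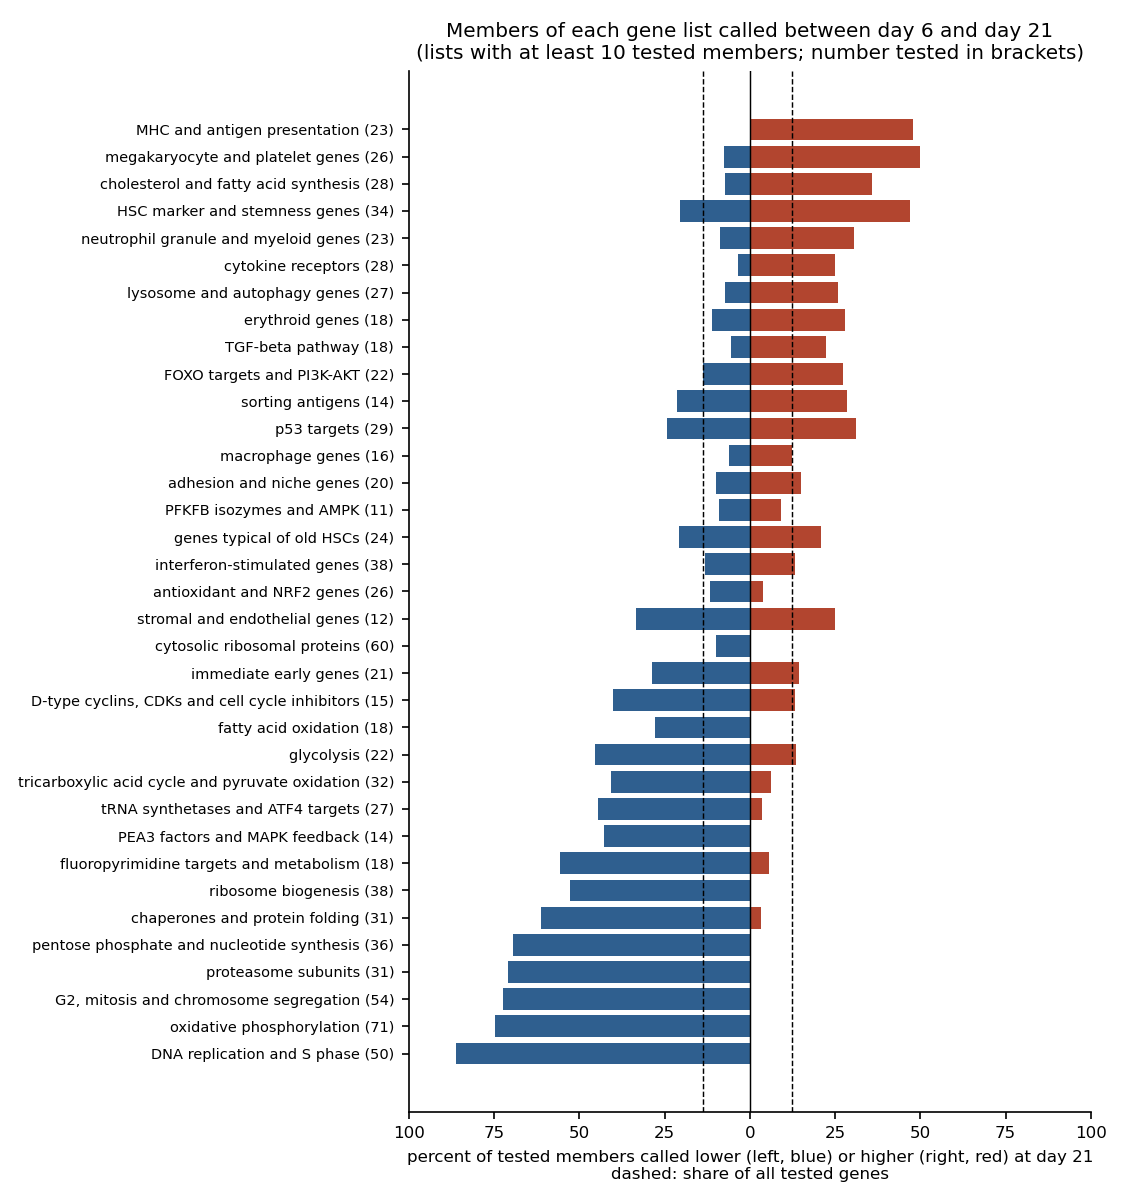
Bars give the percent of tested members of each gene list with at least 10 tested members called higher (to the right) or lower (to the left) at day 21 than at day 6 at edgeR adjusted p under 0.05, with the number of tested members beside each list name and dashed lines at the 12.3% higher and 13.7% lower of all tested genes. The S phase list reaches 43 of 50 members lower and the MHC list 11 of 23 higher.

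Genes that handle the drug and encode its targets were more often lower than higher at day 21. In a list of 18 genes of fluoropyrimidine metabolism and action, 10 were lower and 1 was higher, with a median log2 fold change of -0.43. Slc29a1 encodes ENT1, the nucleoside carrier of the plasma membrane, and stood at 1618, 1892 and 1637 CPM at day 6 and 738, 848 and 678 CPM at day 21. It fell by 1.18 (standard error 0.11, edgeR adjusted p = 0.00117), with every day 21 library below every day 6 library. Tk1, the thymidine kinase of S phase, fell by 1.37 from levels of 108, 110.1 and 116 CPM, and Rrm2, the regulated subunit of ribonucleotide reductase, by 1.10 from 47.3, 46.4 and 39.99 CPM. Both Tk1 and Rrm2 are also members of the S phase list, so the lists are not separate. The list of the pentose phosphate pathway and nucleotide synthesis had 25 of 36 lower and 0 higher (median -0.40). Its largest fall was that of Mthfd2, a mitochondrial folate enzyme, at 12.8, 16.3 and 16 CPM at day 6 and 6.05, 4.18 and 6.03 CPM at day 21 (log2 fold change -1.47, edgeR adjusted p = 0.00307). Dut, which removes dUTP before it can enter DNA, fell by 0.99 and Nme1, a nucleoside diphosphate kinase, by 1.02. Without any one day 6 replicate, 15 of the pentose phosphate and nucleotide genes were called.

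Respiratory chain genes were lower at day 21 by small and even steps. Of 71 oxidative phosphorylation genes, 53 were called lower and 0 higher, with a median log2 fold change of -0.43. In 69 of them no day 21 library reached a day 6 library, where 46.0% of all tested genes had libraries that did not overlap in one direction or the other. Atp5g3, a subunit of the rotor of ATP synthase, was at 306, 334 and 312 CPM at day 6 and 157, 173 and 183 CPM at day 21 (log2 fold change -0.88, standard error 0.084, edgeR adjusted p = 0.00131). Uqcrq and Uqcr10, subunits of complex III, fell by 0.99 and 0.91. In the tricarboxylic acid cycle list 13 of 32 were lower and 2 higher, and 4 to 7 were called lower without day 21 replicate 2 or 3 or any one day 6 replicate. The higher ones were Idh1, the cytosolic isocitrate dehydrogenase (log2 fold change 0.89), and Pdk2, a kinase that turns pyruvate dehydrogenase off (log2 fold change 0.83). Idh1 was at a log2 fold change of 0.40 and was not called with the PBS groups' difference subtracted (adjusted p = 0.199). These small steps depended on the number of libraries: 21 to 26 oxidative phosphorylation genes were called without day 21 replicate 2 or 3 or any one day 6 replicate, against 53 with all 6 libraries and 55 without day 21 replicate 1, and 30 were called with the PBS groups' difference subtracted.

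Glycolysis was mixed, with 10 of 22 genes lower and 3 higher (median -0.27), and 6 were called lower without day 6 replicate 1 or 2. Ldha, which makes lactate from pyruvate, was at 1054, 1285 and 1145 CPM at day 6 and 708, 745 and 729 CPM at day 21 (log2 fold change -0.67, edgeR adjusted p = 0.00266). Hk2, the inducible hexokinase, fell by 1.26, while Aldoc, an aldolase isozyme, rose from 18.9, 17.8 and 18.3 CPM to 42.2, 41.2 and 39.8 CPM (log2 fold change 1.17, edgeR adjusted p = 0.000647). Of the PFKFB enzymes, which set the level of the glycolytic activator fructose 2,6-bisphosphate, Pfkfb2 was called and the others were not in this fit. Its levels were 25.3, 15.7 and 22.7 CPM at day 6 and 55.8, 37.9 and 44.7 CPM at day 21 (log2 fold change 1.13, edgeR adjusted p = 0.00917), and 19.5% of its exonic bases are shared with other genes. Its call was lost with the PBS groups' difference subtracted (log2 fold change 0.86, adjusted p = 0.0765). Pfkfb3, the most abundant of them, was at 120.4, 155 and 128 CPM at day 6 and 132, 155 and 168 CPM at day 21, and the days overlapped (log2 fold change 0.18, edgeR adjusted p = 0.334). Pfkfb1 and Pfkfb4 had log2 fold changes of -0.22 and 0.59 (edgeR adjusted p = 0.714 and 0.0923), and without day 6 replicate 2 or with all 21 libraries in one fit Pfkfb4 was called, at adjusted p of 0.0409 and 0.0213. Prmt1, the main arginine methyltransferase of asymmetric dimethylation, was at 162, 180.3 and 176 CPM at day 6 and 106, 119 and 115 CPM at day 21 and fell by 0.60 (edgeR adjusted p = 0.00397). Whether the libraries of these days differ in PFKFB3 protein or its methylation cannot be read from transcripts.

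Cholesterol synthesis genes were more often higher than lower at day 21. Of 28 genes of cholesterol and fatty acid synthesis, 10 were higher and 2 lower, with a median log2 fold change of 0.35. Insig1, which holds the SREBP cleavage complex in the endoplasmic reticulum and is itself an SREBP target, was at 19.8, 15.4 and 16.1 CPM at day 6 and 34.2, 31.7 and 32.4 CPM at day 21, a rise of 0.95 on the log2 scale (edgeR adjusted p = 0.00229). Hmgcs1, the first committed enzyme of the pathway, was at 71.5, 69.8 and 58.02 CPM at day 6 and 98.1, 97 and 151 CPM at day 21 (log2 fold change 0.80, edgeR adjusted p = 0.02105), and was chosen after its values were seen. Its call was lost without any single day 6 replicate, at adjusted p of 0.0527 to 0.0727, and with the PBS groups' difference subtracted (adjusted p = 0.108). The promoter of Hmgcs1 is printed because it is the one promoter of this list that held the sterol response letters TCACNCCAC, of 20 at hand (5%, against 1.34% of the promoters of tested genes), with the match in capitals.
Hmgcs1, chr13:119690101-119690400, plus strand: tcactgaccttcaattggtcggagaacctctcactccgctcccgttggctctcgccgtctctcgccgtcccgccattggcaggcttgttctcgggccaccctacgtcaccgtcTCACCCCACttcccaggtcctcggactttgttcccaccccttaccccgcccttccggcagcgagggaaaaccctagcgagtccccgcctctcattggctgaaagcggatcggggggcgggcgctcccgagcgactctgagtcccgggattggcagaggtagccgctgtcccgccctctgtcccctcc
CCAAT was present in 19 of these 20 promoters (95%), against 43.6% of those of all tested genes. The number of genes of this list called higher was 5 without day 6 replicate 2, 6 without day 6 replicate 1 or day 21 replicate 3, 7 to 9 without any other library, and 6 with the PBS groups' difference subtracted.

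Genes of protein production and quality control were lower as well. Lower at day 21 were 20 of 38 ribosome biogenesis genes, 22 of 31 proteasome subunits and 19 of 31 chaperones, with medians of -0.30, -0.36 and -0.37. Npm1, the nucleolar protein nucleophosmin, was at 1190.5, 1308 and 1208 CPM at day 6 and 636, 644 and 710.1 CPM at day 21 (log2 fold change -0.89, standard error 0.073, edgeR adjusted p = 0.000925). Hspd1, the mitochondrial chaperonin, fell by 0.65, Hspa5, the main chaperone of the endoplasmic reticulum, by 0.62, and Psma7, a proteasome core subunit, by 0.57. The call of Hspa5 was lost with the PBS groups' difference subtracted (log2 fold change -0.32, adjusted p = 0.0537). Of 60 cytosolic ribosomal proteins 6 were called lower, which is below the 13.7% of all genes. The list of tRNA synthetases and ATF4 targets, genes that answer to amino acid supply, had 12 of 27 lower and 1 higher. Without day 6 replicate 2, 6 of them were called lower. Psat1, an enzyme of serine synthesis, fell by 0.87 and Slc7a5, a carrier of large neutral amino acids, by 0.84. The counts of the ribosome biogenesis, proteasome and chaperone lists fell to 4, 5 and 8 without day 6 replicate 2 and were at most 11 without day 21 replicate 2 or 3 or any one day 6 replicate, while that of ribosomal proteins was 34 without day 21 replicate 1.

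Signaling genes gave some of the largest falls. Etv4, an ETS factor of the PEA3 group induced by MAPK signaling, lies at chr11:101769742-101785371 and was at 15.5, 12.8 and 13.7 CPM in the day 6 libraries and 0.03905, 0 and 0.951 CPM in the day 21 libraries. Its log2 fold change was -5.34 (standard error 1.00, edgeR adjusted p = 0.0103), and with the PBS groups' difference subtracted the adjusted p was 0.0798. In the list of PEA3 factors and MAPK feedback genes 6 of 14 were lower and 0 higher. Spry1, a feedback inhibitor of receptor kinases, was at 34.4, 29.9 and 33.6 CPM at day 6 and 11.1, 18.7 and 14.7 CPM at day 21 (log2 fold change -1.12, edgeR adjusted p = 0.00644), and 24.4% of its exonic bases are shared with another annotated gene. Id1, a target of BMP signaling that holds back helix-loop-helix factors, went from 36.3, 41.8 and 31.3 CPM to 1.87, 3.18 and 3.51 CPM (log2 fold change -3.65, standard error 0.23, edgeR adjusted p = 0.0005902). Gem, a small GTPase and one of the genes chosen after its values were seen, went from 82.99, 79.5 and 81.2 CPM to 17.4, 14.2 and 17.7 CPM (log2 fold change -2.30, edgeR adjusted p = 0.000447). In Etv4, Spry1, Id1 and Gem all day 21 libraries lay below all day 6 libraries.

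Immediate early genes, which answer within minutes to stimulation and also to tissue handling, had 6 of 21 lower and 3 higher, and the count called lower was 2 or 3 without day 21 replicate 3 or any one day 6 replicate. Egr1 was at 36.1, 39.3 and 42.1 CPM at day 6 and 14.9, 16.3 and 9.87 CPM at day 21 (log2 fold change -1.51, edgeR adjusted p = 0.00248). Nr4a1 fell by 1.58 (edgeR adjusted p = 0.00479). Fos fell by 1.97, and its call (edgeR adjusted p = 0.0289) was lost without any one of 4 libraries, namely day 21 replicates 2 and 3 and day 6 replicates 2 and 3. p53 targets did not move as one: 9 of 29 were higher and 7 lower. Against the fall of Cdkn1a, Gadd45a, a stress protein that binds PCNA, rose from 3.45, 3.04 and 3.14 CPM to 7.42, 8.01 and 9.33 CPM (log2 fold change 1.37, edgeR adjusted p = 0.004503). For Gadd45a and Txnip, 19.1% and 19.4% of the exonic bases are shared with genes on the other strand. Of the p53 targets, 3 were called higher without day 21 replicate 3 or day 6 replicate 1, 5 without day 6 replicate 3 and 1 without day 6 replicate 2. Interferon-stimulated genes had 5 of 38 higher and 5 lower, or 26.3% called against 26.0% of all tested genes. Those called lower were at most 3 without day 21 replicate 2 or 3 or any one day 6 replicate. Txnip, a target of FOXO and MondoA that slows glucose uptake, was at 387, 336 and 352 CPM at day 6 and 815, 789 and 720.3 CPM at day 21 (log2 fold change 1.12, standard error 0.082, edgeR adjusted p = 0.000693).

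Genes typical of HSCs were more often higher than lower at day 21. Of 34 HSC marker and stemness genes, 16 were higher and 7 lower, with a median log2 fold change of 0.37. The largest rise of this list, 1.58, was that of Itga2b, which is given again below with the megakaryocyte genes. Kit, the stem cell factor receptor at chr5:75574916-75656722, whose protein was also used in the sort, was at 583, 622 and 586 CPM in the day 6 libraries and 1269.5, 1371 and 1319 CPM in the day 21 libraries. The levels at day 21 lay above those at day 6 in every library (log2 fold change 1.15, standard error 0.064, edgeR adjusted p = 0.000521). The day 6 gate took in cells with dim c-Kit, and the part of the gate in the level of Kit cannot be told apart from that of the day. Meis1, a partner of HOX proteins, rose by 0.60 from 378, 381 and 382 CPM (edgeR adjusted p = 0.00131), and 18.3% of its exonic bases are shared with other gene models. Of the defining HSC markers, Hlf, Mecom, Hoxa9 and Fgd5 were not called. Their log2 fold changes were 0.26, -0.28, -0.029 and -0.56 (edgeR adjusted p = 0.0911, 0.162, 0.8201 and 0.0617). Slamf1, given below, was not called either, and Procr and Ly6a fell. Without day 21 replicate 2, Mecom was called at a log2 fold change of -0.45 (adjusted p = 0.0134), and without day 21 replicate 1 Fgd5 was called at -0.71 (adjusted p = 0.0414).

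The other antigens of the sort moved in both directions. Slamf1, which encodes CD150, was at 46.6, 47.3 and 53.96 CPM at day 6 and 48.1, 39.7 and 42.7 CPM at day 21, and Cd48 was at 7.19, 7.92 and 7.73 CPM and 4.295, 7.19 and 5.56 CPM. Neither was called (log2 fold changes -0.17 and -0.41, edgeR adjusted p = 0.262 and 0.218). Ly6a, which encodes Sca-1, was at 485, 607 and 534 CPM at day 6 and 362, 412 and 436 CPM at day 21 (log2 fold change -0.42, edgeR adjusted p = 0.0292). Procr, the protein C receptor found on HSCs, fell by 0.39 (edgeR adjusted p = 0.0243), and Cd34 rose from 205, 219 and 204 CPM to 343, 315 and 323 CPM (log2 fold change 0.65, edgeR adjusted p = 0.00167). The call of Ly6a was lost without day 21 replicate 1 or 2 or day 6 replicate 2 or 3, that of Procr without any one library other than day 21 replicate 1, and those of Procr and Cd34 with the PBS groups' difference subtracted. Flt3, the receptor of early lymphoid and dendritic progenitors and a negative marker of the sort, was at 8.36, 3.22 and 6.28 CPM at day 6 and 24.1, 24.8 and 22.6 CPM at day 21 (log2 fold change 2.01, standard error 0.30, edgeR adjusted p = 0.00477). Itgam, the gene of Mac-1, was at 5.001, 6.59 and 7.16 CPM at day 6 and 26.5, 23.7 and 24.01 CPM at day 21 (log2 fold change 1.99, edgeR adjusted p = 0.000717), so it was lower on the day when the antibody to Mac-1 was left out. Its reads are uncertain, since 68.7% of its exonic bases are shared with the readthrough gene model Gm49368. Csf3r, the receptor of G-CSF, rose by 1.07 (edgeR adjusted p = 0.00179), or by 0.54 and without a call with the PBS groups' difference subtracted (adjusted p = 0.059). Of 28 cytokine receptors 7 were higher and 1 lower, or 28.6% called, near the 26.0% of all tested genes.

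**Figure D3:**
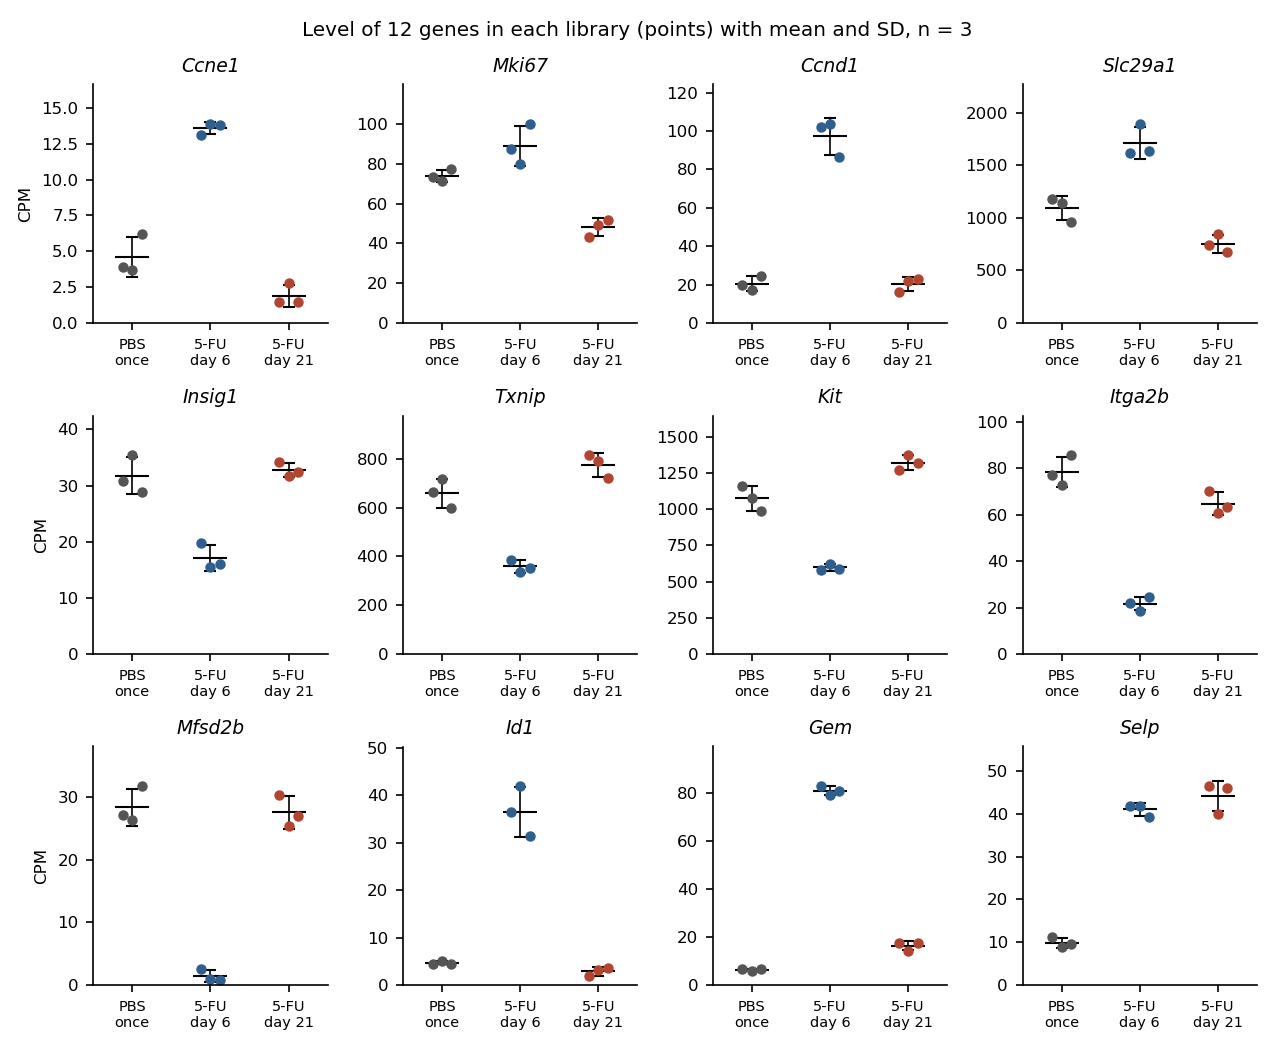
Levels of 12 genes in CPM on linear axes from 0, one point for each of the 3 libraries of PBS once, 5-FU day 6 and 5-FU day 21, with the mean and SD of each group. Ccnd1, Slc29a1 and Mki67 are lower and Kit, Itga2b and Mfsd2b higher in all day 21 libraries than in all day 6 libraries.

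Antigen presentation genes were called in one direction only. Of 23 genes of the MHC and antigen presentation, 11 were higher and 0 lower, with a median log2 fold change of 0.30. H2-Q6, a class Ib gene, was at 687, 683 and 702 CPM at day 6 and 1344, 1351 and 1259.7 CPM at day 21 (log2 fold change 0.94, standard error 0.059, edgeR adjusted p = 0.0005902), without overlap. H2-Eb1, a class II chain, was at 4.03, 3.11 and 3.25 CPM at day 6 and 7.38, 6.25 and 7.73 CPM at day 21 (log2 fold change 1.05, edgeR adjusted p = 0.0152), and its call was lost without day 6 replicate 2 or 3. Its log2 fold change was 0.27, not called, with the PBS groups' difference subtracted (adjusted p = 0.422). Genes of the H2-Q family are close in sequence and their reads may be split among copies. With any one library left out 8 to 10 of the list were called higher, and with the PBS groups' difference subtracted 5.

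Megakaryocyte and platelet genes held 3 of the 12 largest rises. Of 26 genes tested in the list, 13 were higher and 2 lower, with a median log2 fold change of 0.61. Mfsd2b, a sphingosine 1-phosphate exporter of red cells and platelets at chr12:4862440-4874359, had the largest rise of any gene that met the naming rule. It was at 2.61, 0.963 and 0.804 CPM in the day 6 libraries and 30.3, 25.3 and 26.95 CPM in the day 21 libraries (log2 fold change 4.26, standard error 0.39, edgeR adjusted p = 0.00125). Plek, the platelet substrate of protein kinase C, went from 3.32, 2.04 and 8.496 CPM to 40.7, 37.2 and 41.2 CPM (log2 fold change 3.11, edgeR adjusted p = 0.00422), and Treml1, a receptor of platelet granules, from 2.56, 1.48 and 2.79 CPM to 18.7, 17.2 and 13.8 CPM (log2 fold change 2.87, edgeR adjusted p = 0.00124). Itga2b, the gene of CD41, which is present on megakaryocytes and on part of the HSC pool, was at 22.1, 18.6 and 24.5 CPM at day 6 and 70.4, 60.6 and 63.3 CPM at day 21 (log2 fold change 1.58, standard error 0.12, edgeR adjusted p = 0.000752). Itgb3, the other chain of the platelet fibrinogen receptor, rose by 1.87 (edgeR adjusted p = 0.00513). In all 5 of these genes every day 21 library was above every day 6 library. The summed level of the whole list was 3225 to 3391 CPM at day 6 and 4902 to 5678 CPM at day 21.

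Erythroid genes split. Adult beta-globins were higher at day 6: Hbb-bs was at 39.7, 47.03 and 42.9 CPM at day 6 and 6.01, 10.6 and 7.01 CPM at day 21 (log2 fold change -2.44, edgeR adjusted p = 0.000998), and Hbb-bt fell by 2.26 (edgeR adjusted p = 0.0005902). These copies are near-identical and may share reads. The alpha-globin gene Hba-a1 was at 4.03, 0.259 and 0.268 CPM at day 6 and 2.23, 11.3 and 1.55 CPM at day 21, with the days overlapping. Klf1, the master factor of red cell genes, was at 0.546, 0.407 and 0.268 CPM at day 6 and 2.23, 1.31 and 1.49 CPM at day 21 (log2 fold change 2.03, edgeR adjusted p = 0.0396), and its call was lost without any one library, at adjusted p of 0.0644 to 0.134, and with the PBS groups' difference subtracted (adjusted p = 0.0548). Aqp1, a water channel, rose from 3.87, 4.18 and 4.94 CPM to 11.6, 10.9 and 13.5 CPM (log2 fold change 1.48, edgeR adjusted p = 0.00218). Of 18 erythroid genes 5 were higher, or 3 without day 21 replicate 2 or 3 or day 6 replicate 1 or 2, and 2 were lower, and their summed level was 1276 to 1344 CPM at day 6 and 1278 to 1400 CPM at day 21.

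Of 33 genes in a list of neutrophil granule and other myeloid genes, 23 were tested, and 7 were higher and 2 lower at day 21. A gene near 0 at day 6 can pass the count filter through day 21 alone, so the direction of the list is no result. Irf8, also among the dendritic cell genes below, was one of the 2 lower genes. The libraries of day 21 were uneven. S100a9, an alarmin of neutrophils, was at 2.06, 0.889 and 7.004 CPM at day 6 and 33.3, 16.2 and 57.6 CPM at day 21 (log2 fold change 3.43, standard error 0.73, edgeR adjusted p = 0.0159). Ltf, which encodes lactoferrin, was at 0.08405, 1.07 and 0.191 CPM at day 6 and 8.47, 1.39 and 14.2 CPM at day 21 (log2 fold change 4.13, edgeR adjusted p = 0.0312), and Ngp, a granule protein, at 0.546, 0.333 and 1.49 CPM and 9.92, 1.62 and 15.1 CPM (log2 fold change 3.49, edgeR adjusted p = 0.0277). Day 21 replicate 2 was the lowest of its group in each of these genes and close to the highest day 6 library for Ltf and Ngp. Without day 6 replicate 1 all 3 calls were lost, at log2 fold changes of 3.19, 3.65 and 3.28 and adjusted p of 0.0587, 0.0848 and 0.0915 for S100a9, Ltf and Ngp. The calls of Ltf and Ngp were also lost without day 21 replicate 1 or 3, that of Ltf without day 6 replicate 3 and that of Ngp without day 6 replicate 2. Mpo, the peroxidase of granulocyte precursors, was at 0.504, 0.111 and 0.574 CPM at day 6 and 4.49, 1.93 and 5.65 CPM at day 21. Its log2 fold change was 3.34 (edgeR adjusted p = 0.0158), and the call was kept in the 14 alternatives in which it was tested. Elane, the elastase of these precursors, reached at most 0.4295 CPM in any of the 6 libraries. Of the list, 4 genes were called higher without day 21 replicate 1 or 3 and 3 without day 6 replicate 1. The whole list, with its myeloid genes of other kinds, summed to 443 to 469 CPM at day 6 and 484 to 590.4 CPM at day 21.

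Genes that mark other marrow cells were followed as lists and as single genes. Cd3e of T cells and Cd79a of B cells were each at 0.2296 CPM or less in all 6 libraries. The whole B cell list summed to 36.2 to 44.9 CPM at day 6 and 39.8 to 45.6 CPM at day 21, with 0 of 2 tested genes called. For T and NK cell genes the sums were 32.4 to 45.8 CPM and 51.6 to 65.1 CPM, with 1 of 6 tested genes higher. C1qa and C1qb of macrophages stood at 0.2101, 0.555 and 0.498 CPM and 1.01, 1.07 and 1.07 CPM at day 6 and at 1.48, 1.08 and 0.624 CPM and 1.84, 1.34 and 2.56 CPM at day 21. Apoe, which macrophages share with HSCs, was at 657, 674 and 716 CPM at day 6 and 1254, 1378 and 1193 CPM at day 21 (log2 fold change 0.91, edgeR adjusted p = 0.000925). It weighed most in the summed macrophage list, at 743 to 799 CPM at day 6 and 1266 to 1459 CPM at day 21. In that list 2 of 16 genes were higher and 1 lower, or 18.8% called against 26.0% of all tested genes. C1qb was called with the PBS groups' difference subtracted, at a log2 fold change of 3.00 (adjusted p = 0.0113). Of 6 dendritic cell genes tested, 3 were higher and 2 lower, and the list summed to 475 to 494 CPM at day 6 and 614 to 647 CPM at day 21. Irf8, a factor of dendritic cells and monocytes and one of the 2 lower genes, fell from 17.02, 26.3 and 24.6 CPM to 3.397, 6.68 and 8.47 CPM (log2 fold change -1.86, edgeR adjusted p = 0.00798), while Nkg7, a granule gene of cytotoxic cells, rose from 8.49, 7.11 and 8.42 CPM to 17.7, 15.5 and 17 CPM (log2 fold change 1.07, edgeR adjusted p = 0.00214). Flt3 is one of the higher dendritic cell genes. Stromal and endothelial genes had 3 of 12 higher and 4 lower. They summed to 821 to 845 CPM at day 6 and 1075 to 1132 CPM at day 21. Of 18 mast cell, basophil and eosinophil genes only 3 were tested, and 2 were higher. This list summed to 0.9999 to 3.11 CPM at day 6 and 8.74 to 13.4 CPM at day 21. A gene can pass the count filter through a single group, so the direction of these 2 is no result. The part of other cells in the results above was not tested.

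**Figure D4:**
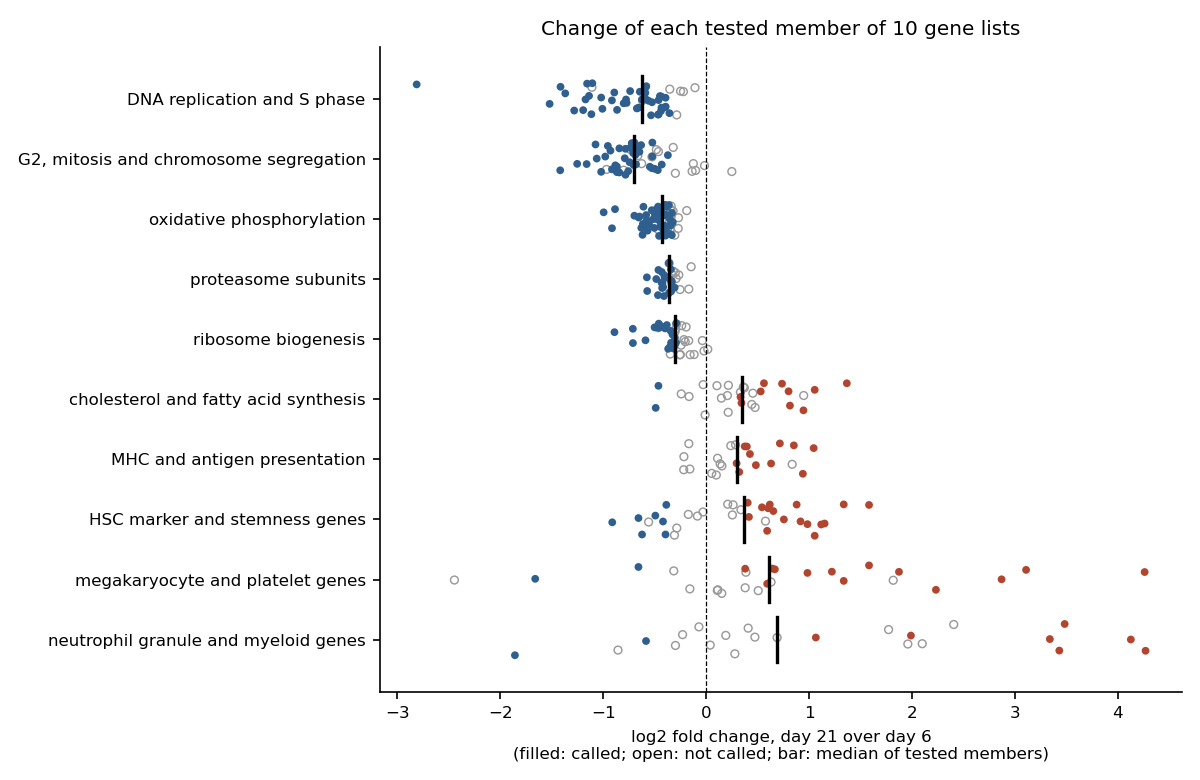
Each point is a tested member of one of the named gene lists, placed at its log2 fold change of day 21 over day 6, filled when called at edgeR adjusted p under 0.05 and open when not, with a bar at the median of the tested members. The S phase members center on -0.62 and the megakaryocyte members on 0.61.

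The 12 largest falls also held genes of other kinds. Igf1, an insulin-like growth factor, was at 45.7, 46.96 and 40.8 CPM at day 6 and 3.08, 3.49 and 7.76 CPM at day 21 (log2 fold change -3.20, edgeR adjusted p = 0.001496), and Spp1, which encodes osteopontin, was at 37.2, 40.5 and 39.6 CPM and 3.12, 3.07 and 7.93 CPM (log2 fold change -3.04, edgeR adjusted p = 0.00214), with 18.8% of its exonic bases in another gene model. Dglucy, a mitochondrial D-glutamate enzyme, went from 87.4, 117 and 88.8 CPM to 9.57, 3.64 and 14.6 CPM (log2 fold change -3.39, edgeR adjusted p = 0.002998). In these 3 genes the days were far apart relative to their spread. Fn1 (fibronectin), Mmp16 (a membrane metalloproteinase), Meis2 (a homeodomain factor) and Flrt3 (an adhesion molecule) fell by 3.30, 3.25, 3.71 and 3.78, and Rnase10 and Igsf9 by 4.60 and 2.84. The call of Flrt3 was lost without any one day 6 replicate, that of Rnase10 also without day 21 replicate 1, that of Meis2 without day 21 replicate 3 or day 6 replicate 1 or 2, and that of Igsf9 without any one library other than day 21 replicate 1. With the PBS groups' difference subtracted Fn1, Mmp16 and Flrt3 were at log2 fold changes of -0.81, -1.65 and -2.68 and none of them was called (adjusted p = 0.783, 0.165 and 0.290), and the call of Rnase10 was lost as well (adjusted p = 0.0584). Septin3, annotated as Sept3 at chr15:82274893-82294574, was at 5.63, 1.96 and 20.7 CPM in the day 6 libraries and had no count in any day 21 library. One day 6 library, replicate 3, held most of that level. With a floor of 3 counts per library the gene was at least 97.1-fold lower at day 21 than the day 6 mean (edgeR adjusted p = 0.0114), at least 39.1-fold lower than the mean without day 6 replicate 3 and at least 20.2-fold lower than the lowest day 6 library.

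Among the 12 largest rises were 3 regulators of transcription. Sox6, an SRY-box factor that acts in red cell and platelet development, was at 77.9, 43.5 and 84.05 CPM at day 6 and 451, 446 and 379 CPM at day 21 (log2 fold change 2.64, standard error 0.24, edgeR adjusted p = 0.00124). Zbtb16, which encodes PLZF, rose by 3.17 (edgeR adjusted p = 0.00798) and Bcl6, a repressor, by 3.33 (edgeR adjusted p = 0.0432). The call of Bcl6 was lost without any one day 21 replicate and without day 6 replicate 3, and those of Bcl6 and Gng7 with the PBS groups' difference subtracted (adjusted p = 0.0921 and 0.123). Fhdc1, a formin, went from 5.76, 1.26 and 1.799 CPM to 36.9, 38.6 and 50.4 CPM (log2 fold change 3.86, edgeR adjusted p = 0.00279). Pdgfrb, a receptor of mesenchymal cells, went from 7.396, 4.22 and 3.64 CPM to 47.2, 19.9 and 26.6 CPM (log2 fold change 2.63, edgeR adjusted p = 0.00475). Gng7, a G protein subunit, rose by 3.01 (edgeR adjusted p = 0.0301), a call lost without day 21 replicate 1 or 3 or day 6 replicate 1.

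The day 6 and day 21 libraries were each set against PBS. Both of these comparisons use libraries of the one above, so their values stand side by side and are not independent. Day 6 against PBS once gave 2827 called genes of 12759 tested (22.2%), within one column name kind but across the gates. Day 21 against PBS once gave 28 of 12647 (0.221%), with 9 higher and 19 lower at day 21, at one gate but across column name kinds. At an unadjusted p under 0.05 there were 1685 genes and DESeq2 called 725. The count was 1 without day 21 replicate 1, 18 without day 21 replicate 3 and 1 to 3 without any one PBS replicate, so a low count does not show that day 21 and PBS were alike. The 2 PBS groups, which differ in column name kind and in the number of injections, differed in 2 of 12806 genes (0.0156%), with 1633 at an unadjusted p under 0.05 and 547 called by DESeq2. The time since the first injection changes with the number of injections.

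The S phase list had a median log2 fold change of 0.39 for day 6 over PBS and of -0.24 for day 21 over PBS, and the mitotic list 0.33 and -0.33. None of the 50 S phase and 54 mitotic genes was called lower at day 21 than in PBS, and PBS 3 times over PBS once, which crosses the same column name kinds, gave medians of -0.16 and -0.062. The medians of oxidative phosphorylation were 0.32 and -0.10, those of cholesterol synthesis -0.48 and -0.11, and those of the megakaryocyte list -0.86 and -0.28. Kit was at 1162, 1073 and 989 CPM in the PBS libraries (day 21 over PBS, log2 fold change 0.30, edgeR adjusted p = 0.155). Mki67 was at 73.3, 71.7 and 77.4 CPM in PBS, and all 3 day 21 libraries were below all of these (log2 fold change -0.62, edgeR adjusted p = 0.0657, not called).

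Some genes stood apart from PBS on both days. The genes named here, and Gem, Plac8, Lat2, Muc13, Vegfa, Ak4 and H2bc4, are among the 28 called between day 21 and PBS, and were chosen after their values were seen. Selp, the gene of P-selectin, was at 11.2, 8.92 and 9.63 CPM in PBS, 41.8, 41.96 and 39.4 CPM at day 6 and 46.5, 40.1 and 46.1 CPM at day 21 (day 21 over PBS 2.16, edgeR adjusted p = 0.00282). In the libraries of PBS given 3 times, which share the column name kind of day 21, Selp was at 23.8, 31.5 and 33.7 CPM (log2 fold change over PBS once 1.58, edgeR adjusted p = 0.0741) and Cd53 at 5.14, 11.7 and 11.2 CPM. Cd53, a tetraspanin of leukocytes, was at 4.71, 4.44 and 5.65 CPM, 20.8, 21.6 and 18.2 CPM and 21.7, 18.6 and 23.1 CPM in the same order (day 21 over PBS 2.10, edgeR adjusted p = 0.00782). Both genes were higher in every 5-FU library than in every library of PBS once, and than in every library of PBS 3 times. With the difference between the PBS groups subtracted, the log2 fold change of day 21 over day 6 became -1.47 for Selp (adjusted p = 0.000773) and -0.85 for Cd53. Mmrn1, a platelet protein stored in granules, was lower on both days than in PBS, at 665, 658 and 636 CPM in PBS, 383, 355 and 346 CPM at day 6 and 427, 384 and 389 CPM at day 21 (day 21 over PBS -0.71, edgeR adjusted p = 0.0169).

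Other genes differed from PBS once at day 21 in other orders. Gem remained above PBS, where it was at 6.56, 6.04 and 6.68 CPM (day 21 over PBS 1.36, edgeR adjusted p = 0.0169). Plac8, a small protein of myeloid and lymphoid cells, was at 32.4, 24.8 and 24.95 CPM in PBS, 15.8, 12.4 and 18.2 CPM at day 6 and 75.2, 78.5 and 78.7 CPM at day 21, lowest at day 6 and highest at day 21 (day 21 over PBS 1.5, edgeR adjusted p = 0.01599). Lat2, an adaptor of immune receptors, had the same order, at 16.9, 15.3 and 14.2 CPM, 9.75, 8.67 and 10.4 CPM and 49.8, 46.6 and 31.7 CPM, although 36.3% of its exonic bases overlap Rfc2 on the opposite strand. Muc13 was at 798, 729 and 707 CPM in PBS, between the days (day 21 over PBS 0.66, edgeR adjusted p = 0.0169). In the other direction, Vegfa, the vascular growth factor, was at 58.1, 81.9 and 73.5 CPM in PBS, 85.8, 77.4 and 108 CPM at day 6 and 32.1, 26.2 and 25.8 CPM at day 21 (day 21 over PBS -1.35, edgeR adjusted p = 0.0281), and Ak4, a mitochondrial adenylate kinase, was lower at day 6 than in PBS and lower again at day 21, at 95.2, 96.1 and 125 CPM, 73.6, 66.1 and 81.8 CPM and 25.9, 31.2 and 43.1 CPM (day 21 over PBS -1.66, edgeR adjusted p = 0.0356). H2bc4 was at 27.5, 28.9 and 30.3 CPM in PBS, again between the days. Of the 14 genes of this comparison that were followed through all alternatives, the Selp call alone was kept in every one, none of which sets day 21 against PBS 3 times.

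The same change of day and gate was measured in other libraries, after the third administration of 5-FU, within one column name kind. There 2450 of 12553 genes were called (19.5%), with 1089 (8.68%) higher and 1361 (10.8%) lower at day 21. The S phase list had 44 of 50 members lower (median log2 fold change -0.87) and the mitotic list 52 of 54 (median -1.16). Megakaryocyte genes had 9 of 25 higher and 2 lower (median 0.15), and cholesterol genes 7 of 28 higher and 1 lower (median 0.24). Kit was at 778, 728 and 764 CPM at day 6 and 1142, 1063 and 1309 CPM at day 21 of the third administration, without overlap (log2 fold change 0.64, edgeR adjusted p = 0.00429). Fewer respiratory chain genes were called, 12 of 71 lower with a median of -0.15. Of the interferon-stimulated genes 15 of 38 were higher and 0 lower. Etv4 fell by 4.32 and Id1 by 3.29, and the S100a9 level rose by 4.18 (edgeR adjusted p = 0.00151, 0.00971 and 0.00379).

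A test of the difference itself, the interaction of day with the number of administrations, called 31 of 13036 genes (0.238%), 7 with a more positive and 24 with a more negative change after the third administration. Of the 4 groups in this test only day 6 of the first administration has the suffix in its column names. The number of administrations, the time since the first of them and the column name kind therefore cannot be told apart in it. None of the genes of the S phase and mitotic lists, and none of the oxidative phosphorylation or interferon-stimulated lists other than Gbp7, was among them. Mfsd2b rose after both courses but more after the first: it was at 15.6, 8.74 and 11.8 CPM at day 6 and 26.1, 28.1 and 31.2 CPM at day 21 of the third (log2 fold change 1.24, difference -3.02, standard error 0.45, edgeR adjusted p = 0.0241). Runx3, a Runt factor, was at 19.8, 24.1 and 24.5 CPM at day 6 and 52.4, 60.2 and 52.9 CPM at day 21 of the first administration, and at 51.6, 65.5 and 73.1 CPM and 59.6, 49.7 and 52.5 CPM at those days of the third. It rose after the first (log2 fold change 1.28) and had a log2 fold change of -0.23 after the third, a difference of -1.51 (edgeR adjusted p = 0.0231). Itga2b and Cdk6 also had smaller rises or none after the third administration, with differences of -1.02 and -1.04 (edgeR adjusted p = 0.0241 and 0.0231).

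Other genes differed in the opposite direction. Ocln, a tight junction protein, was at 40.5, 46.2 and 42.4 CPM at day 6 and 20.1, 25.6 and 29.7 CPM at day 21 of the first administration and at 9.84, 16.8 and 13.7 CPM and 25.4, 27.9 and 26.6 CPM at those of the third. It fell after the first (log2 fold change -0.77) and rose after the third (log2 fold change 0.99), and the difference was 1.76 (standard error 0.25, edgeR adjusted p = 0.0231). Slfn2, a regulator of immune cell quiescence, was at 29.8, 34.1 and 30.7 CPM and 9.41, 10.2 and 7.904 CPM after the first and at 13.01, 14.99 and 10.7 CPM and 11.5, 10.1 and 10.6 CPM after the third, a difference of 1.52 (edgeR adjusted p = 0.0231). The calls depended on single libraries: in edgeR, 0 genes were called without replicate 2 of day 21 after the third administration (1949 at an unadjusted p under 0.05), 1 without day 6 replicate 1 or 2 of the first, and 77 without day 6 replicate 2 of the third. With all 12 libraries DESeq2 called 714.

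**Figure D5:**
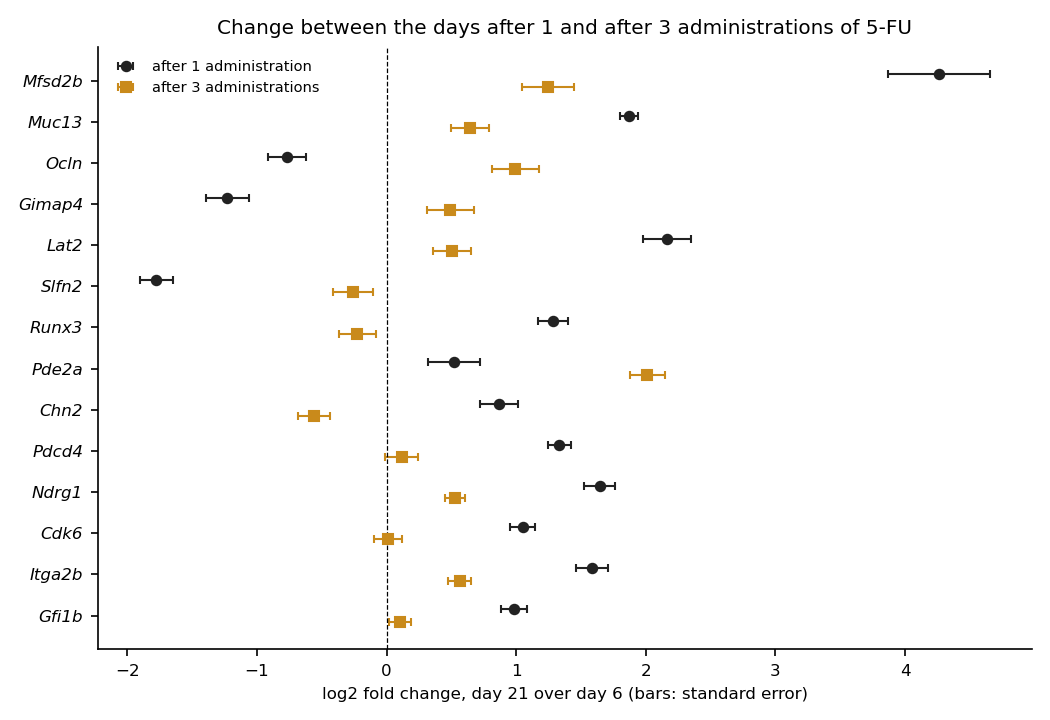
For each gene, points give the log2 fold change of day 21 over day 6 after 1 and after 3 administrations of 5-FU, with bars of 1 standard error from edgeR. Mfsd2b is at 4.26 and 1.24, and Ocln is at -0.77 and 0.99, on opposite sides of 0.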

How the data were processed

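RNA was sequenced as single-end reads of 75 bases after SMART-Seq v4 cDNA synthesis and Nextera XT library preparation, which do not keep strand. The authors deposited one table of raw counts per gene symbol, with 22184885 to 38649033 counts in each of 21 libraries. The program that counted reads is not given in the sources used here; the submitters' processing notes name TopHat2 2.0.13, Cufflinks 2.2.1 and Cuffdiff on the build mm10.

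Day 21 was compared with day 6 on the 6 libraries with the quasi-likelihood test of edgeR 4.0.16 in R 4.3.3, with TMM factors, filterByExpr and Benjamini-Hochberg adjustment over all genes kept, and genes were called at an adjusted p under 0.05. Other comparisons were fitted likewise on their own groups, and the interaction on 12 libraries. Same-numbered libraries of the 2 days did not deviate together (correlations of 0.00848, 0.0522 and 0.0163) and were not taken as pairs. Alternatives were RLE size factors, no factor, DESeq2 1.42.0, filters of 1 count in total and of 10 in every library, a replicate block, one fit of all 21 libraries, thinning to the smallest total, subtraction of the difference between the PBS groups, and leaving out each library. Scripts were tested on simulated counts with known changes. For day 21 against day 6 after 1 administration, edgeR recovered 88.7% of the changed genes and DESeq2 93.3%. Of their calls in these simulated counts, 8.99% and 23.3% were false.

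The libraries compared and the 40 gene lists were chosen with earlier results of these data known, and lists carry no test. Named genes were the 12 largest rises and 12 largest falls among called genes with a mean normalized count of at least 100 and no overlap between days, up to 3 called genes per list at that minimum, 15 genes of the sort and the study, defining cell type markers and the 8 largest called interactions. Promoters are from RefSeq and gene positions from GENCODE vM21, both on GRCm38, the assembly of mm10.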

Additional observations from a re-analysis of the deposited data

Results flagged for a closer look

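The results given here are those in which the change between day 6 and day 21 differed between 1 and 3 administrations by the interaction test of edgeR, at an adjusted p under 0.05. A negative difference means a lower log2 fold change after the third administration. Muc13 was chosen after its values were seen, as were Cdk6, Itga2b, Gfi1b, Pdcd4 and Ndrg1 for this test. Day 6 of the first administration is the one group of this test with the suffix in its column names, and its part in these differences was not tested.

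The difference was -3.02 for Mfsd2b (adjusted p = 0.0241), -1.66 for Lat2 (adjusted p = 0.0246), -1.51 for Runx3 (adjusted p = 0.0231) and -1.43 for Chn2, which encodes a GTPase-activating protein of Rac (adjusted p = 0.0231). It was -1.23 for Muc13, -1.21 for Pdcd4, an inhibitor of translation, -1.11 for Ndrg1, a stress-induced gene, and -0.88 for Gfi1b, a repressor needed in the megakaryocyte and erythroid lineages. For Cdk6 and Itga2b it was -1.04 and -1.02. Pdcd4 was at 129, 107 and 118 CPM at day 6 and 296, 307 and 284 CPM at day 21 after the first administration, and at 268, 201 and 239.9 CPM and 279, 260.2 and 227 CPM after the third. Each of these 10 genes was called higher at day 21 after the first administration, Chn2 not so with the PBS groups' difference subtracted (log2 fold change 0.42, adjusted p = 0.266).

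In the other direction the difference was 1.76 for Ocln, 1.73 for Gimap4, a GTPase of lymphocytes, 1.52 for Slfn2 and 1.49 for Pde2a, a cyclic nucleotide phosphodiesterase (adjusted p = 0.0231, 0.0305, 0.0231 and 0.0466). Gimap4 was at 113, 134 and 102 CPM at day 6 and 56.1, 52.9 and 38.8 CPM at day 21 after the first administration, and at 67.8, 69.8 and 76.5 CPM and 81.5, 86.5 and 132 CPM after the third. Pde2a was at 97.7, 87.6 and 105 CPM and 103, 182 and 129.7 CPM, and at 42.8, 55.4 and 40.3 CPM and 176, 194 and 186 CPM in the same order, and 64.3% of its exonic bases are shared with the gene model Gm45837. The falls of Ocln and Gimap4 after the first administration were not called with the PBS groups' difference subtracted (adjusted p = 0.193 and 0.180). None of the 14 differences stayed past the threshold under every alternative, and without replicate 2 of day 21 after the third administration none did (1949 genes at an unadjusted p under 0.05, and 714 called by DESeq2 with all libraries).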

How the results depend on the processing

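Of 143 genes followed between day 21 and day 6, 126 were called, 89 of them under every alternative run, and no called gene changed sign. With the PBS groups' difference subtracted 2155 genes were called in place of 3272, 28 of the genes followed lost their call, and the log2 fold changes of Cd48, Selp, Cd53, Trpc6 and Hoxa9 became 0.080, -1.47, -0.85, 0.27 and 0.031. Leaving out one library gave 1736 to 2978 calls, and turned the sign of the uncalled values of Pfkfb1 (-0.52 to 0.16) and Hoxa9 (-0.077 to 0.016). The other comparisons gave 1563 to 1947 calls (day 6 against PBS), 1 to 32 (day 21 against PBS), 0 to 1 (between the PBS groups, where 1312 to 1563 genes had an unadjusted p under 0.05), 1351 to 1744 (after 3 administrations) and 0 to 77 (the interaction) with one library left out. Day 21 against PBS gave 28 calls in the main test, 83 without a normalization factor (20.5% of them higher, against 32.1%), 725 with DESeq2 (55.2% higher) and 257 with all 21 libraries in one fit (49.0% higher). The PBS groups gave 547 with DESeq2, 19 with all libraries and 1 when thinned. The interaction gave 714 with DESeq2 and 221 with all libraries. Without a normalization factor the share called higher was 41% against 52% for day 6 against PBS, 63.5% against 44.4% after 3 administrations (median of all genes 0.12) and 54.3% against 22.6% for the interaction (median 0.13). For the replicate block, 2652 genes were called between the days, 2041 for day 6 against PBS, 3 for day 21 against PBS, 0 between the PBS groups (1604 at an unadjusted p under 0.05), 2071 after 3 administrations and 7 for the interaction. The replicate numbers mark no stated pairing, and 12 of the 126 called genes lost their call with the block. Where alternatives differed the cause was not tested. The values of Septin3, Etv4 and Ltf rest on few counts in one of the groups.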

Other observations

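Of 27 lysosome and autophagy genes 7 were higher and 2 lower at day 21, or 33.3% called against 26.0% of all tested genes. Ulk1, the kinase that starts autophagy, was at 105, 91.7 and 89.7 CPM at day 6 and 174, 179 and 169 CPM at day 21 (log2 fold change 0.88, edgeR adjusted p = 0.00139), while Ctss, the lysosomal protease cathepsin S, fell from 29.6, 34.7 and 24.8 CPM to 13.3, 12.02 and 10.6 CPM (log2 fold change -1.30, edgeR adjusted p = 0.00206). For both genes the days did not overlap. Of 22 FOXO targets and genes of PI3K signaling 6 were higher and 3 lower, with Ccng2, a cyclin of resting cells, at 19.5, 14.1 and 15.1 CPM at day 6 and 30.5, 28.9 and 31.1 CPM at day 21 (log2 fold change 0.90, edgeR adjusted p = 0.00458). TGF-beta pathway genes had 4 of 18 higher and 1 lower, or 27.8% called, near the 26.0% of all tested genes. Tgfbr2, the type II receptor, rose from 74, 99.4 and 74.2 CPM to 167, 142 and 146 CPM (log2 fold change 0.88, edgeR adjusted p = 0.00549).

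Genes described as typical of old HSCs had 5 of 24 higher and 5 lower, and 2 or 3 were called lower without any one library. Aldh1a1, a retinal dehydrogenase, rose from 123, 81.7 and 134 CPM to 242, 289 and 186 CPM (log2 fold change 1.09, edgeR adjusted p = 0.0129), or by 0.33 and without a call with the PBS groups' difference subtracted (adjusted p = 0.442), and Fhl1, a LIM protein, fell from 173, 204 and 167 CPM to 100.5, 89.2 and 98.3 CPM (log2 fold change -0.91, edgeR adjusted p = 0.00188). Among 20 adhesion and niche genes 3 were higher and 2 lower, or 25% called, near the 26.0% of all tested genes. Cxcr4, the receptor that holds HSCs in the marrow, was at 10.1, 6.22 and 5.28 CPM at day 6 and 12.4, 12.98 and 19.3 CPM at day 21 (log2 fold change 1.06, edgeR adjusted p = 0.0331), a call lost without day 21 replicate 3 or day 6 replicate 2 or 3. Of 8 arginine methyltransferases 1 was higher and 1 lower, again 25% called. The higher one was Prmt2, at 40.3, 48.3 and 44.3 CPM at day 6 and 83.96, 81.8 and 73.2 CPM at day 21 (log2 fold change 0.85, edgeR adjusted p = 0.00228). Antioxidant genes had 1 of 26 higher and 3 lower (15.4% called), and fatty acid oxidation genes 0 of 18 higher and 5 lower (27.8% called). Without any one library other than day 21 replicate 1, 0 or 1 antioxidant and 2 fatty acid oxidation genes were called lower, and without that replicate 3 and 8.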
